A study of Mus musculus with 24 samples.

Results

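Integrins are the receptors by which the cells of the heart hold on to their matrix, and the 10 subunits described here are a selection among those borne by its myocytes, fibroblasts, vascular cells and endothelium: Itga1, Itga5, Itga6, Itga7, Itga8, Itga11, Itgav, Itgb1, Itgb3 and Itgb5. They were chosen by symbol from a table of 24958 named genes, and all 10 were found and passed the filter on low values (a mean of at least 10), as did 13799 genes in all. Left ventricle (LV) mRNA was sequenced from C57BL6/J mice at the age of 24 months, in 6 groups of 4 libraries. Control females (Ctrl) and females ovariectomized at 12 months (Ovx) were left untreated or received angiotensin II (AngII), a pressor hormone, at 1.5 mg/kg/day for 28 days from a subcutaneous minipump. Control males and males gonadectomized (Gx) at 12 months received no AngII. The study used sham surgery with no vehicle-filled pump, so that AngII cannot be told apart here from the carrying of a pump. Running saucers were taken away while AngII was given, and the study does not say whether untreated mice kept theirs. By the study's account of its LV libraries, each was made from pooled RNA of 2 mice, and the labels do not name the animals of a pool. The study also reports that an AngII mouse of this age was sacrificed early. Whether every pool of its group held 2 separate mice is not stated. Thus n counts pools, and the p-values below measure the spread between pools. All hearts, the untreated ones included, were those of old animals.

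An integrin is a pair of an α and a β subunit that cross the membrane, bind a matrix protein outside the cell and tie it, through talin, kindlin and the kinases of the adhesion complex, to the actin cytoskeleton. The α subunit largely sets the ligand. In the heart, α5, α8 and αv recognize the RGD motif of fibronectin and other proteins, α6 and α7 bind laminin, and α1 and α11 bind collagen. The β1 subunit pairs with all of these α subunits, whereas β3 and β5 pair with αv and bind vitronectin, osteopontin and other RGD proteins. The α7β1 pair is the main laminin receptor of adult striated muscle, and α11β1 is a collagen receptor of fibroblasts.

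In mouse GRCm38 coordinates (GENCODE vM21), Itga5 lies on chr15:103344286-103366763 (minus strand, 30 exons), Itgb3 on chr11:104608000-104670476 (plus strand, 15 exons), Itgb5 on chr16:33829665-33949338 (plus strand, 15 exons), Itga8 on chr2:12106632-12301922 (minus strand, 30 exons) and Itgb1 on chr8:128685654-128733200 (plus strand, 16 exons). Itga1 shares its strand and span with Pelo and a read-through gene, Itga7 overlaps Mettl7b and Itga8 overlaps E030013I19Rik on the opposite strand. Itga8 also overlaps Gm37701 on its own strand, Itga5 overlaps Mir6963, Itga6 overlaps Gm13663 and other entries, and Itgav overlaps Gm13684 and Dnmt3l-ps1. The library kit marks strand, but whether strand was used in the counting is not given in the sources used here. Strand would not separate neighbours on the same strand. Reads could thus have been split among these neighbours, and the values of the genes named are uncertain to that extent. A RefSeq promoter window, 250 bases before and 50 after the start of the gene (GRCm38.p6), was matched for 7 of the 10 genes (Itga1, Itga5, Itga8, Itga11, Itgav, Itgb1 and Itgb5). Those of 2 genes that rose after AngII, Itga5 and Itgb5, and of the steadier Itgb1 are shown to let their composition be compared, each 5′ to 3′ on the strand of the gene, with the GC box GGGCGG, or its complement, in capitals.
Itga5 promoter, chr15:103366742-103367041: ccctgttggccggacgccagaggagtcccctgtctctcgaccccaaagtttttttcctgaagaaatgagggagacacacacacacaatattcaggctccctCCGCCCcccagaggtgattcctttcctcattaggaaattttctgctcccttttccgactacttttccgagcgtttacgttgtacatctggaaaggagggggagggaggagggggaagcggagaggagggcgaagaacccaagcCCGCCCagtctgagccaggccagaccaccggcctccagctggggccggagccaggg
Itgb5 promoter, chr16:33829415-33829714: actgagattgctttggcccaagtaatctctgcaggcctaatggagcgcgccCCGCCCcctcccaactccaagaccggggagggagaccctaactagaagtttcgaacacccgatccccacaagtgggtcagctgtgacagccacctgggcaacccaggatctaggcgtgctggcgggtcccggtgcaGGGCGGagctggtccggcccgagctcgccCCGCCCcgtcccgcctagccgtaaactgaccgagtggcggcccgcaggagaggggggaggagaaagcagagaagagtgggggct
Itgb1 promoter, chr8:128685404-128685703: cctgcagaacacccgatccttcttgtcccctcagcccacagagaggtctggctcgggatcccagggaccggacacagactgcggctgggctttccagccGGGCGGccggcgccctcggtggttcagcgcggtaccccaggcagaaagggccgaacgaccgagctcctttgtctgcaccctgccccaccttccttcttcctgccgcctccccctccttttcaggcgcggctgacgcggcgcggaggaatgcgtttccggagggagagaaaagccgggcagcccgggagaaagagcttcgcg

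The GC box, the letters that factors of the SP and KLF families bind, was found 3 times in the Itgb5 window, 2 times in that of Itga5, 1 time in those of Itgb1 and Itgav and in none of the other 3 windows matched. On either strand, 35.7% of 32851 mouse promoter windows of this length hold it. The AP-1 letters TGANTCA were in none of the 7 windows and in 7.81% of all windows, and the TEAD letters CATTCC were in the Itgb1 window only, against 14.7% of all windows. The GC content was 58.7% in Itga5, 65.7% in Itgb5 and 67.3% in Itgb1. A match of letters describes the sequence and does not show a bound site.

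The authors deposited normalized values, not counts, and they were put here on one scale by a median-of-ratios factor per library. Before this step the sum over named genes was 19358943 to 25889811 per library. From the files, depth could be read only relative to the median library and ran from 0.457 (Ctrl + AngII replicate 40) to 1.902 (Ctrl replicate 38). Read totals are given by the study as an average and a range over its LV libraries, and not per library. The factors were nearly the same within a group (1.140 to 1.1481 in Ctrl, 0.9433 to 0.9467 in Ctrl + AngII) and differed between groups, so that in the values as deposited the median gene was lower by a log2 difference of -0.28 in Ctrl + AngII than in Ctrl, of -0.08 in Ovx + AngII than in Ovx and of -0.36 in control males than in control females. Changes are given relative to the median gene. Across the 36 pairs of libraries of a group, Pearson r over genes was 0.969 to 0.986, and no library was counted as a duplicate. Ctrl replicate 39 stood apart by its leukocyte transcripts, with a summed value of 8 macrophage markers of 16826, the highest of all 24 libraries, and 740 for Itgal (αL of lymphocytes) against 85.5 to 104 in the other 3 Ctrl libraries. All 8 cardiomyocyte markers were present in every library, with summed values of 1775784 to 2196742, and the endothelial markers summed to 32930 to 41095.

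The 10 subunits were found at very different levels per kb of transcript, the value divided by the length of the transcript with the longest coding sequence. In Ctrl females Itgb1, the common β partner, stood first with 2644 ± 90.5 (SD, n = 4) per kb, followed by Itga7 with 1176 ± 85.9 and Itgb5 with 858 ± 33.6. Itga6 came next with 467 ± 94.4, and then Itga5 with 364 ± 35.7. Itga1 (102 ± 21.0) and Itgav (92.3 ± 9.67) were several times lower by this length. Itga11 (27.8 ± 4.9), Itga8 (25.5 ± 9.92) and Itgb3 (15.5 ± 3.3) were the least abundant. The Ctrl libraries of Itga6 and Itga5 overlapped, as did those of Itga1 and Itgav, of Itga11 and Itga8, and of Itga8 and Itgb3, and these neighbours are not separated in the order. The first 3 places were the same in all 6 groups and when the coding length was used in place of the transcript length. The distances further down were not: per kb of coding sequence in Ctrl, Itga1 (315 ± 65.0) and Itgav (208 ± 21.8) stood nearer to Itga5 (505 ± 49.5). The last 3 were then Itga8 (46.4 ± 18.1), Itga11 (38.7 ± 6.83) and Itgb3 (38.1 ± 8.08). After AngII Itga5 stood at 539 ± 37.2 per kb in Ctrl females, beside 491 ± 34.7 for Itga6. Since these are whole LV samples, the levels add up all cell types, and fewer cells of a type cannot be told apart from less RNA per cell.

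**Figure D1:**
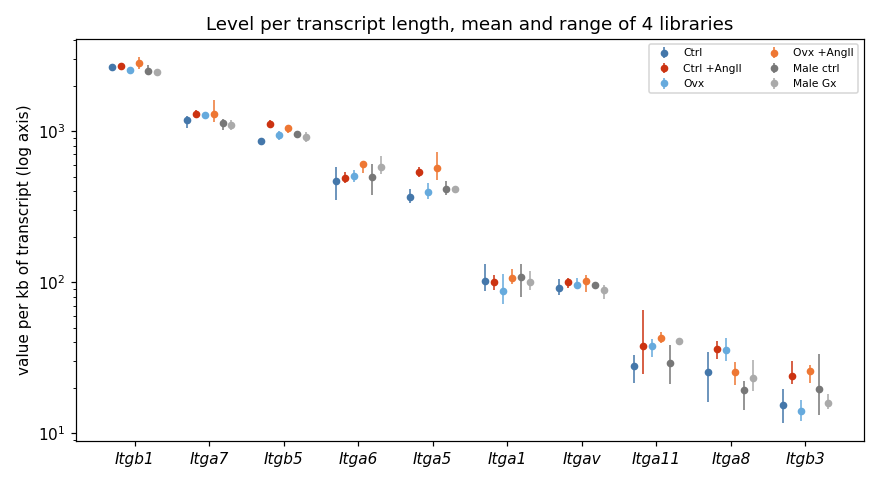
Level of each integrin subunit per kb of transcript (rescaled normalized value per kb, log axis) in the 6 groups, as the mean (point) and the range (line) of 4 libraries. Itgb1, Itga7 and Itgb5 hold the first 3 places in every group, and Itgb3, Itga8 and Itga11 lie under 70 per kb.

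The spread between the pools of a group also differed among the subunits. Itgb1 was the steadiest, with a coefficient of variation within groups of 1.5% to 7.5% (median 2.7%), and Itgb5 followed with a median of 5.4%. The highest coefficients of a group were those of the low subunits, 39.0% for Itga8, 47.2% for Itgb3 and 49.7% for Itga11. Those of Itgb3 and Itga11 came from groups with 1 high library (194 in control male replicate 49 and 325 in Ctrl + AngII replicate 40). The medians of Itga8, Itgb3 and Itga11 were 17.0%, 16.6% and 14.8%, beside 16.2% for Itga1. Across the 24 libraries the highest Pearson r between 2 members was 0.739, for Itga5 and Itgb5, followed by 0.662 for Itga5 and Itgb3 and 0.653 for Itga5 and Itgb1. The lowest, -0.238, was that of Itga1 and Itga7. These coefficients describe libraries that share groups and scale, and carry no test.

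AngII was given to learn how the aged female heart responds to a pressor load with and without its ovaries. In Ctrl females 3 of the 10 subunits rose after AngII (Itga5, Itgb3 and Itgb5) and none fell, at an adjusted p of 0.05 or less by limma over all genes, where 8.17% of all genes tested passed, 4.8% upward and 3.38% downward. The median log2 fold change of the 10 was 0.25, beside -0.01 over all genes. In Ovx females 2 of 10 rose (Itga5 and Itgb3) and none fell, beside 10.2% of all genes, 5.09% in each direction, and the median was 0.18 beside 0.01. An unadjusted p under 0.05 by limma, in either direction, was found for 4 of the 10 in Ctrl (21.6% of all genes). In Ovx it was found for 7 of the 10 (25.1% of all genes). None of the 10 also reached a log2 fold change of 1, the size that the study asked for when it called a gene, as 1.17% of all genes did in Ctrl and 1.11% in Ovx females. The libraries of the untreated and AngII groups did not overlap for 3 members in Ctrl (12.8% of all genes) and for 3 in Ovx (16.5%), all higher with AngII except Itga8 in Ovx. Without Ctrl replicate 39 and Ctrl + AngII replicate 40, 3 members rose in Ctrl females and none fell, while 562 of all genes rose and 361 fell. On the values as deposited, 1 member rose (Itga5) and 1 fell (Itgb1) in Ctrl females, while 290 of all genes rose and 6696 fell. In Ovx females 2 members rose and none fell on those values, while 456 of all genes rose and 1690 fell. The 2 comparisons share no library, but 1 fit estimated their spread.

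**Figure D2:**
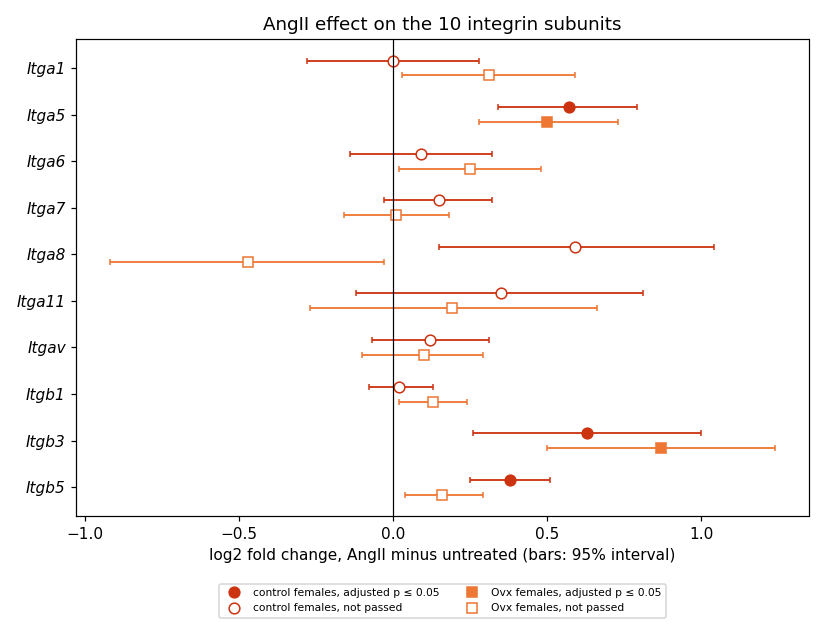
Log2 fold change of each subunit after AngII, AngII minus untreated, in Ctrl females (circles) and Ovx females (squares), with 95% intervals from limma over 16 female libraries; filled symbols passed an adjusted p of 0.05. Itga5 and Itgb3 lie to the right of 0 in both, Itgb5 passed in Ctrl females only, and Itga8 lies on opposite sides.

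Itga5, the α subunit of the fibronectin receptor α5β1, was higher after AngII in both kinds of females. Its values were 1573, 1473, 1511 and 1821 in the 4 Ctrl libraries and 2276, 2181, 2438 and 2546 in the Ctrl + AngII libraries. In Ovx females they were 1557, 1599, 1985 and 1805 without and 2092, 2422, 3174 and 2246 with AngII. Every AngII library was thus above every untreated library of its kind, and Ovx + AngII replicate 48 was the highest of the series. The mean rose 1.48-fold in Ctrl (log2 fold change 0.57, SE 0.11, adjusted p = 0.0025 by limma, exact permutation p = 0.0286) and 1.43-fold in Ovx (0.50, SE 0.11, adjusted p = 0.0054 by limma, exact permutation p = 0.0286). With 4 libraries against 4 there are 70 labelings, and 0.0286 is the smallest p that this 2-sided exact test can give. The call held under every alternative run in both comparisons, with log2 fold changes of 0.29 to 0.63 in Ctrl and 0.38 to 0.58 in Ovx.

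Itgav, the α partner of β3 and β5, stayed between 580 and 751 in Ctrl and Ctrl + AngII libraries (log2 fold change 0.12, SE 0.09, adjusted p = 0.49 by limma) and between 610 and 786 in the Ovx pair (0.10, SE 0.09, adjusted p = 0.56). Its values overlapped between untreated and AngII groups. The 95% interval reached from -0.07 to 0.31 in Ctrl and from -0.10 to 0.29 in Ovx, so that a rise of the size seen for Itga5 lay outside both.

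Itga8, the α subunit of a receptor for nephronectin and fibronectin that is borne by smooth muscle and other mesenchymal cells, took opposite directions. Its values were 93.9, 199, 196 and 102 in Ctrl and 211, 182, 215 and 237 in Ctrl + AngII. They were 249, 198, 175 and 206 in Ovx and 157, 173, 121 and 145 in Ovx + AngII. The Ctrl libraries fell into a lower and a higher pair of which the higher overlapped the AngII group, while in Ovx females every AngII library was below every untreated one. Neither difference passed: the log2 fold change was 0.59 (SE 0.21, adjusted p = 0.1 by limma) in Ctrl and -0.47 (SE 0.21, adjusted p = 0.17 by limma, exact permutation p = 0.0286) in Ovx. Without Ctrl replicate 38 the change in Ctrl was 0.76 and passed (adjusted p = 0.037 by limma), and without replicate 39 it was 0.75 (adjusted p = 0.029).

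The difference between the AngII effects of Itga8 in Ovx and in Ctrl was -1.06 on the log2 scale (95% interval -1.69 to -0.43), which did not pass over all genes by limma (adjusted p = 0.2, from 0.075 to 0.91 under the alternatives). Without AngII, Ovx stood at 0.56 (SE 0.21) above Ctrl for Itga8 with an adjusted p of 0.28 by limma. Under AngII it stood at -0.51 (SE 0.21, adjusted p = 0.36), with all 4 Ovx + AngII libraries below the 4 of Ctrl + AngII. These comparisons of Itga8 use the same 16 libraries and are not independent. The summed values of 5 smooth muscle markers shifted in the same directions, though their ranges overlapped in both pairs. They were 8400-10304 in Ctrl and 10142-11713 in Ctrl + AngII, and 9414-12407 in Ovx and 7797-10147 in Ovx + AngII. In Ctrl females 3 of these 5 markers rose, beside 4.8% of all genes. Their log2 fold changes there were above 0 for 4 of the 5, with a range over all 5 of -0.14 to 1.24 (median 0.5). In Ovx females all 5 had log2 fold changes below 0 (-0.57 to -0.15, median -0.36), and none passed by limma. Their part in the result was not tested.

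**Figure D3:**
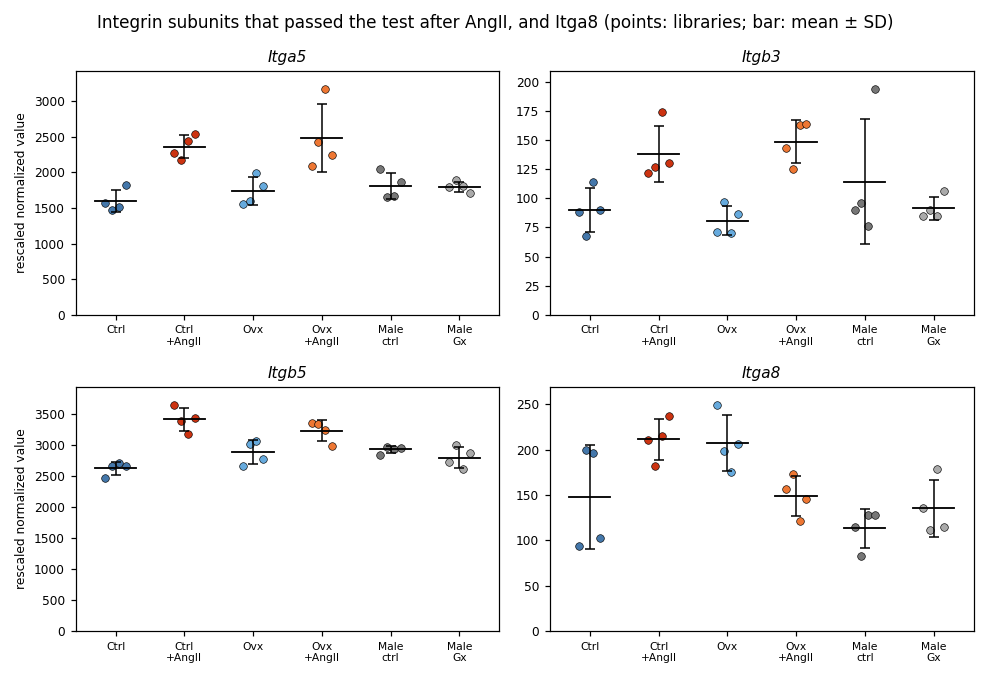
Rescaled normalized values of Itga5, Itgb3, Itgb5 and Itga8 in each library (points) of the 6 groups, with the mean (bar) and SD (whiskers) of 4 libraries. The AngII libraries of Itga5 and Itgb3 lie above the untreated ones of the same kind, those of Itgb5 do so in Ctrl females, and those of Itga8 lie below in Ovx females.

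The α subunits for laminin did not pass the test in either comparison. Itga7, the partner of β1 on cardiac myocytes, had values of 4908, 5024, 4732 and 4241 in Ctrl and of 5554, 5284, 4944 and 5126 in Ctrl + AngII, overlapping groups with a log2 fold change of 0.15 (SE 0.08, adjusted p = 0.33 by limma). In Ovx females the change of Itga7 was 0.01 (SE 0.08, adjusted p = 0.96), with 1 high AngII library at 6476 beside 3 at 4623 to 4980. Itga6, found on endothelium and other cells on basement membrane, was at 1450 to 2409 in Ctrl and 1874 to 2221 in Ctrl + AngII (log2 fold change 0.09, SE 0.11, adjusted p = 0.7 by limma). It was at 1900 to 2282 in Ovx and 2182 to 2651 in Ovx + AngII (0.25, SE 0.11, adjusted p = 0.16), and passed there only when libraries were weighted by quality (0.30, adjusted p = 0.027). On the values as deposited, the sign in Ctrl turned for both, to -0.13 in Itga7 and -0.18 in Itga6.

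The α subunits for collagen did not pass either. Itga1, which binds collagen on smooth muscle and capillary cells, was at 961, 1040, 1457 and 1005 in Ctrl and at 1223, 1150, 979 and 1056 in Ctrl + AngII. Ctrl replicate 39, the library rich in leukocyte transcripts, was the high one, and the log2 fold change was 0.00 (SE 0.13, adjusted p = 0.99 by limma). Without that library it was 0.13 (adjusted p = 0.55 by limma). In Ovx females Itga1 was at 1240, 901, 788 and 919 without and at 1234, 1065, 1079 and 1335 with AngII (0.31, SE 0.13, adjusted p = 0.16 by limma). Without Ovx replicate 43, the high one, the change was 0.43 and passed (adjusted p = 0.026), as it did with library quality weights and all libraries kept (0.39, adjusted p = 0.016). Itga11, the collagen receptor of fibroblasts, was at 107 to 165 in Ctrl. In Ctrl + AngII it was at 325 in replicate 40, the shallowest library, and at 122 to 168 in the others (0.35, SE 0.22, adjusted p = 0.39 by limma). Without replicate 40 the change was 0.05, and with any other library of these groups left out it was 0.23 to 0.52. The Ovx libraries of Itga11 were at 158 to 208 and those with AngII at 197 to 233 (0.19, SE 0.22, adjusted p = 0.64).

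**Figure D4:**
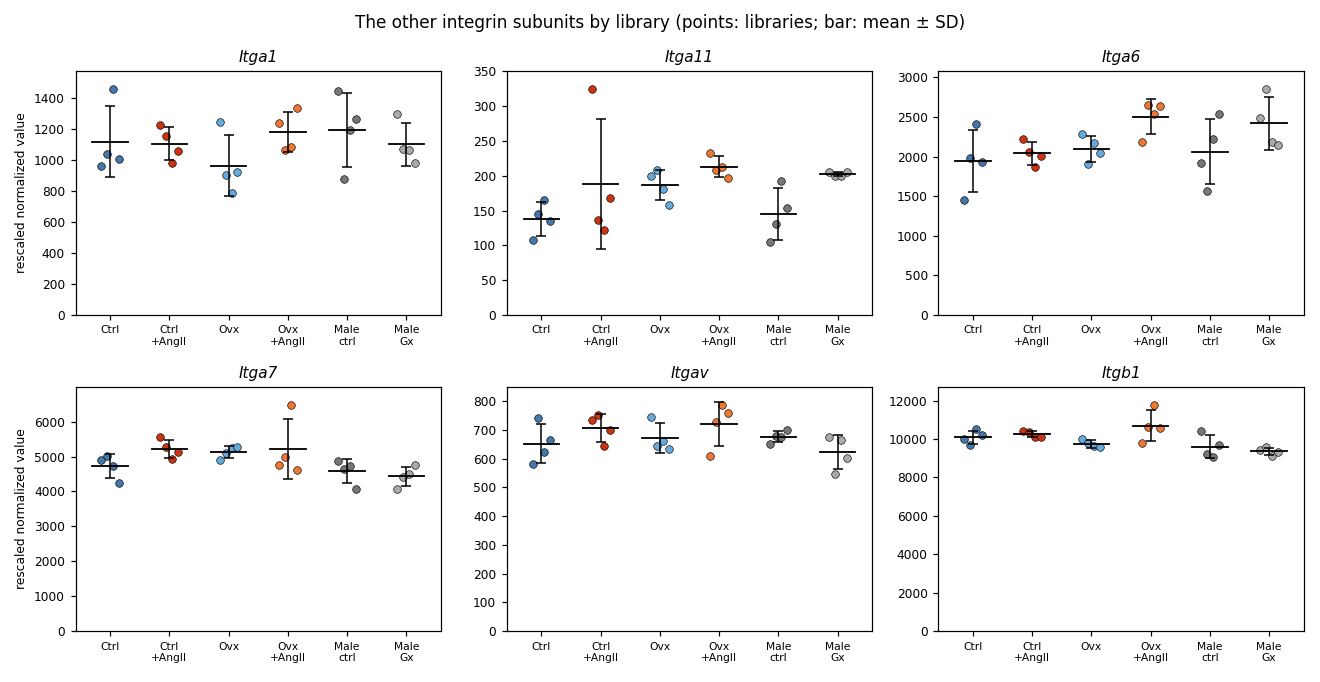
Rescaled normalized values of Itga1, Itga11, Itga6, Itga7, Itgav and Itgb1 in each library (points), with the mean (bar) and SD (whiskers) of 4 libraries per group. The untreated and AngII libraries overlap for all 6, with single high libraries in Itga1 (1457, Ctrl) and Itga11 (325, Ctrl + AngII).

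Among the β subunits, Itgb1 was the most abundant and had the smallest fold change in Ctrl females. Its values were 9989, 9674, 10497 and 10185 in Ctrl and 10389, 10361, 10114 and 10114 in Ctrl + AngII, with a log2 fold change of 0.02 (95% interval -0.08 to 0.13, adjusted p = 0.85 by limma). On the values as deposited it was -0.25 (adjusted p = 0.00061), near the shift of the median gene. In Ovx females Itgb1 was at 9573 to 9994 without and 9815 to 11763 with AngII (0.13, SE 0.05, adjusted p = 0.12 by limma). It passed there when Ovx + AngII replicate 46, the lowest of its group, was left out (0.17, adjusted p = 0.043).

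Itgb3, which forms αvβ3 and, in platelets, the fibrinogen receptor αIIbβ3, had the largest fold change of the members that passed. Its values were 88.0, 67.5, 114 and 90.1 in Ctrl and 122, 127, 174 and 130 in Ctrl + AngII. They were 70.8, 96.7, 70.1 and 86.2 in Ovx and 143, 125, 163 and 164 in Ovx + AngII. In both kinds of females all AngII libraries were above all untreated ones, by a wider margin in Ovx. The mean rose 1.54-fold in Ctrl (log2 fold change 0.63, SE 0.18, adjusted p = 0.034 by limma) and 1.84-fold in Ovx (0.87, SE 0.18, adjusted p = 0.0035), with an exact permutation p of 0.0286 in each. In Ctrl the call was not kept without replicate 37, 38 or 51 of Ctrl or replicate 42 or 52 of Ctrl + AngII (log2 fold changes of 0.50 to 0.65, adjusted p of 0.058 to 0.12), nor on the values as deposited (0.35, adjusted p = 0.1), whereas in Ovx it held under every alternative run.

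Itga2b, the platelet partner of β3, was at a mean of 31.6 in Ctrl and 28.1 in Ctrl + AngII, and at 28.2 in Ovx and 39.0 in Ovx + AngII. It did not pass in either comparison (adjusted p = 0.84 and 0.41 by limma). The summed values of 5 platelet and megakaryocyte markers were 342 to 417 in Ctrl and 340 to 446 in Ctrl + AngII, and 248 to 368 in Ovx and 335 to 415 in Ovx + AngII. These ranges overlapped in both kinds of females. For 8 macrophage markers they were 8957 to 16826 in Ctrl and 12385 to 15303 in Ctrl + AngII, and 10026 to 12732 in Ovx and 11448 to 13496 in Ovx + AngII. The part of these cells in the change of Itgb3 was not tested.

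Itgb5, which with αv forms a vitronectin receptor, rose in Ctrl females. Its values were 2471, 2660, 2703 and 2653 in Ctrl and 3643, 3387, 3183 and 3438 in Ctrl + AngII, so that the groups were well apart. The mean rose 1.30-fold (log2 fold change 0.38, SE 0.06, adjusted p = 0.00051 by limma, exact permutation p = 0.0286). On the values as deposited the change was 0.10 and did not pass (adjusted p = 0.15). In Ovx females it was at 2666, 3023, 3070 and 2771 without and 3351, 3334, 3249 and 2979 with AngII (0.16, SE 0.06, adjusted p = 0.09 by limma), with 1 AngII library among the untreated ones. The difference between the effects in Ovx and in Ctrl was -0.22 (95% interval -0.39 to -0.04, adjusted p = 0.38 by limma).

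Ratios to Itgb1 within each library do not depend on how libraries are scaled, and were computed for the members that rose, a choice made after the values were seen. Itga5 came to 15.8% ± 1.5 of the Itgb1 value in Ctrl and 23.1% ± 1.9 in Ctrl + AngII, and to 17.9% ± 2.3 in Ovx and 23.1% ± 2.7 in Ovx + AngII (SD, n = 4). Itgb3 came to 0.888% ± 0.16 and 1.35% ± 0.25 in the Ctrl pair, and to 0.832% ± 0.14 and 1.39% ± 0.16 in the Ovx pair. Itgb5 came to 26.0% ± 1.1 in Ctrl and 33.3% ± 1.6 in Ctrl + AngII. In these 5 comparisons all AngII libraries were above all untreated ones. For Itgb5 in Ovx females the ratios were 29.6% ± 2.3 and 30.4% ± 3.0, and overlapped. Since the members and their denominator were picked for how they had moved, the ratios are descriptions with no test.

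Tested for all genes, a difference between the AngII effect in Ovx and in Ctrl was found for 0.058% of genes and for none of the 10 subunits (limma), of which 2 had an unadjusted p under 0.05 (Itga8 and Itgb5, above), as did 10.4% of all genes. The difference was -0.06 for Itga5 (95% interval -0.38 to 0.26) and 0.25 for Itgb3 (-0.28 to 0.77). For Itga1 it was 0.31 (-0.09 to 0.71). The passing of Itgb5 in Ctrl females only is therefore not shown to be a difference between the 2 kinds of females.

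Ovariectomy and gonadectomy were compared to see what the loss of gonadal steroids does to the old heart. Between Ovx and Ctrl without AngII none of the 10 subunits passed (0.109% of all genes did by limma), with log2 fold changes of -0.21 to 0.56 and 2 unadjusted p under 0.05, as 12.4% of all genes had. Under AngII none of 10 passed either (1.01% of all genes), with changes of -0.51 to 0.29 and 2 unadjusted p under 0.05, as 11.5% of all genes had. The libraries of these groups overlapped for all 10 without AngII and for all but Itga8 under AngII, where 6.01% and 6.81% of all genes did not overlap. In males none of 10 passed between Gx and controls (0.0797% of all genes), with changes of -0.23 to 0.52 and 1 unadjusted p under 0.05, as 8.54% of all genes had, so that 1 of 10 was near the background. It was that of Itga11, at 105, 130, 192 and 153 in control males and 206, 200, 200 and 205 in Gx males. All Gx libraries were above all control ones and lay very close to each other (log2 fold change 0.52, SE 0.21, adjusted p = 0.49 by limma, exact permutation p = 0.0286), where 5.05% of all genes did not overlap between these groups in either direction.

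Between control males and control females none of the 10 subunits passed the same test (1.2% of all genes did by limma), with log2 differences, males minus females, of -0.32 to 0.27 and 1 unadjusted p under 0.05, beside 12.9% of all genes. This was Itgb5, at 2843, 2973, 2940 and 2954 in males, above the 2471 to 2703 of females (log2 difference 0.16, SE 0.06, adjusted p = 0.2, exact permutation p = 0.0286). Here 6.4% of all genes did not overlap. On the values as deposited, the sign of Itgb5 was the opposite (-0.20, adjusted p = 0.0039). For the effect of gonadectomy in males against that in females none of the 10 passed (0.00725% of all genes by limma), with 1 unadjusted p under 0.05 beside 6.07% of all genes and differences of -0.31 to 0.11.

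**Figure D5:**
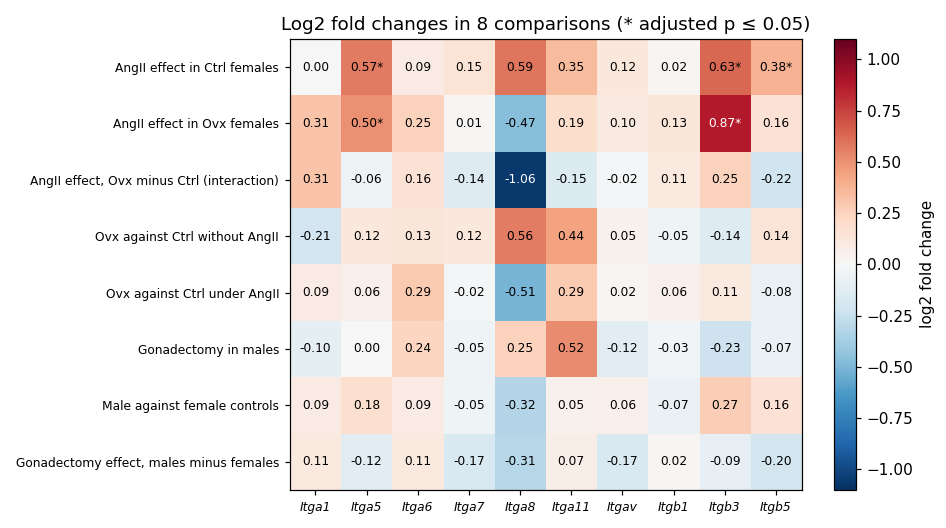
Log2 fold changes of the 10 subunits (columns) in the 8 comparisons (rows), colored from blue (lower) to red (higher); an asterisk marks an adjusted p of 0.05 or less by limma. The 5 asterisks all lie in the upper rows, those of the AngII effects, and the row of the difference between these effects has none, with -1.06 for Itga8 as its strongest value.

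Larger changes were found in a list of integrin ligands, most of them matrix proteins. The list also holds Tgfb1, Vcam1 and Icam1, which are not matrix proteins, and it was chosen with earlier results of these data known. Of 30 symbols listed, 27 were tested. In Ctrl females 18 rose and none fell (median log2 fold change 0.52), 10 of them by 1 or more on the log2 scale. There 4.8% of all genes rose and 1.17% passed with a change of 1 or more in either direction. In Ovx females 16 rose and 1 fell (median 0.35), 7 of those that rose by 1 or more, where 5.09% of all genes rose, 5.09% fell and 1.11% passed with a change of that size. The largest changes in Ctrl were those of Spp1 (osteopontin, a ligand of αv integrins), from a mean of 16.4 to 95.5, and of Postn (periostin), from 1764 to 6871. The log2 fold change was 2.66 for Spp1 (SE 0.57, adjusted p = 0.0059 by limma) and 1.97 for Postn (SE 0.14, adjusted p = 2.1e-07). Thbs1 (thrombospondin 1), Ctgf (a matricellular growth factor) and Tnc (tenascin C) rose by 1.90, 1.83 and 1.77 on the log2 scale in Ctrl and by 1.99, 1.44 and 1.83 in Ovx. In Ovx, Spp1 rose by 2.12 and Postn by 1.82. The call of Spp1 in Ovx was lost without replicate 43 of Ovx or replicate 47 or 48 of Ovx + AngII (adjusted p of 0.053 to 0.083 by limma).

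Beside these, 1 ligand for each kind of α subunit was named after its values had been seen. Fn1 (fibronectin, the ligand of α5β1) rose from a mean of 2021 to 5085 in Ctrl females (log2 fold change 1.33, SE 0.13, adjusted p = 5.4e-06 by limma). It rose from 2861 to 4278 in Ovx females (0.58, SE 0.13, adjusted p = 0.008), where the ranges of the libraries overlapped. Col1a1 (the α1 chain of type I collagen) rose from 2423 to 5822 in Ctrl (1.29, SE 0.15, adjusted p = 3e-05) and from 3267 to 6739 in Ovx (1.04, SE 0.15, adjusted p = 0.00021). Lama2 (the laminin chain of the myocyte basement membrane) rose from 3830 to 4593 in Ctrl (0.26, SE 0.07, adjusted p = 0.018), a change that was -0.02 on the values as deposited and was not called without replicate 37 of Ctrl or 40 or 52 of Ctrl + AngII (adjusted p of 0.051 to 0.067). In Ovx its change was 0.17 (SE 0.07, adjusted p = 0.12 by limma).

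Outside the AngII effects 4 ligands passed, 2 of 27 in each of 2 comparisons in which 1.01% (Ovx against Ctrl under AngII) and 1.2% (male against female controls) of all genes did. Under AngII, Fbn1 (fibrillin 1, an RGD protein of microfibrils) and Col4a2 (a chain of basement membrane collagen) were higher in Ovx than in Ctrl, by 0.52 (SE 0.12, adjusted p = 0.046 by limma) and 0.40 (SE 0.09, adjusted p = 0.045) on the log2 scale. Neither passed without Ctrl + AngII replicate 41, 42 or 52 or Ovx + AngII replicate 47, 48 or 54, with differences that stayed at 0.44 to 0.53 for Fbn1 and 0.32 to 0.40 for Col4a2. Vcam1 and Icam1, endothelial ligands of leukocyte integrins, were lower in control males than in control females, with log2 differences of -0.71 (SE 0.13, adjusted p = 0.0054) and -0.57 (SE 0.13, adjusted p = 0.028). The Icam1 value without Ctrl replicate 39, the library rich in leukocyte transcripts, was -0.41 and did not pass (adjusted p = 0.086), nor did it without male replicate 31 or 33 or Ctrl replicate 51 (-0.56 to -0.49, adjusted p of 0.056 to 0.081). Vcam1 passed with any 1 library left out, but not with only the compared libraries in the fit (adjusted p = 0.11).

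Inside the cell, 31 of 32 adaptors and kinases of the adhesion complex were tested. In Ctrl females 6 rose and none fell (median log2 fold change 0.12), and in Ovx females 4 rose and 1 fell (median 0.08), with no change of 1 or more. Over all genes 8.17% passed in Ctrl, 4.8% upward and 3.38% downward, and 10.2% in Ovx. Ptk2b (the FAK-related kinase Pyk2) rose by 0.71 (SE 0.17, adjusted p = 0.014 by limma) in Ctrl and by 0.60 (SE 0.17, adjusted p = 0.032) in Ovx. Actn1 (α-actinin 1, an actin cross-linker) rose by 0.50 (adjusted p = 0.005) and 0.37 (adjusted p = 0.03), and Parvb (β-parvin, of the ILK complex) by 0.25 (adjusted p = 0.0071) and 0.28 (adjusted p = 0.0035), the change of Parvb in Ctrl being -0.02 on the values as deposited. Tln1 (talin 1, which ties β tails to actin) rose by 0.32 in Ctrl (adjusted p = 0.0037), and in Ovx its change was 0.19 (adjusted p = 0.065). Zyx (zyxin) rose by 0.36 in Ctrl (adjusted p = 0.047), and in Ovx its change was 0.33 (adjusted p = 0.061). Sgcd (δ-sarcoglycan, of the dystrophin complex) rose by 0.41 in Ovx (adjusted p = 0.031), and in Ctrl its change was 0.09 (adjusted p = 0.7).

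Many of these adaptor calls lay near the threshold. Leaving out 1 library at a time gave adjusted p values, by limma, of up to 0.15 for Zyx in Ctrl and of up to 0.11 for Actn1, 0.12 for Ptk2b and 0.12 for Sgcd in Ovx, while the log2 fold changes stayed at 0.32 to 0.44 for Zyx, 0.29 to 0.46 for Actn1, 0.48 to 0.72 for Ptk2b and 0.29 to 0.53 for Sgcd. The Zyx call in Ctrl was lost without any of replicates 37, 38, 39, 40, 42 or 52, and the Ptk2b call in Ctrl without 37 or 52. In Ovx, the calls of Actn1, Ptk2b and Sgcd were each lost without replicate 44, 45, 47 or 54, among others. Those of Actn1 and Tln1 in Ctrl and of Parvb in both kinds of females were kept in each case. The deposited scale gave changes in Ctrl of 0.22 for Actn1, 0.09 for Zyx and 0.05 for Tln1, which did not pass.

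Of the 17 other integrin subunits, 15 were tested, and only Itga9 passed after AngII, in Ovx females, beside 10.2% of all genes. Itga9, a receptor subunit for tenascin C and osteopontin, was at 1816, 1753, 1761 and 2043 in Ovx and at 2760, 2844, 3996 and 2814 in Ovx + AngII, with no overlap (log2 fold change 0.74, SE 0.15, adjusted p = 0.0038 by limma). In Ctrl it was at 1534 to 2155 without and at 3649, 2475, 2001 and 2272 with AngII (0.46, SE 0.15, adjusted p = 0.071). The subunits of leukocyte integrins, among them Itgal, Itgam and Itgb7, did not pass in either comparison, and all 3 had their highest Ctrl value in replicate 39. Between Ovx and Ctrl under AngII 1 of the 15 passed (1.01% of all genes did), Itgb6, a partner of αv on epithelium, at 355 to 407 in Ovx + AngII and 202 to 299 in Ctrl + AngII (0.63, SE 0.15, adjusted p = 0.043 by limma). Leaving out Ctrl + AngII replicate 40, 42 or 52 or any 1 of the Ovx + AngII replicates 46, 47, 48 and 54 lost the call (adjusted p of 0.063 to 0.16 by limma), with log2 differences of 0.54 to 0.66. Without AngII Itgb6 was likewise higher in every Ovx library (318 to 423) than in every Ctrl library (180 to 281), with a log2 difference of 0.56 (SE 0.15) that did not pass (adjusted p = 0.12 by limma), and the 2 differences were 0.07 apart (95% interval -0.36 to 0.50).

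Markers of activated fibroblasts moved with the ligands and with Itga5 and Itgb3 in both kinds of females, and with Itgb5 in Ctrl females, whereas in Ovx females, where they also rose, Itgb5 did not pass (0.16, adjusted p = 0.09 by limma). Their 8 genes summed to 2355 to 4195 in Ctrl and to 12889 to 23923 in Ctrl + AngII, and to 3623 to 4730 in Ovx and to 14721 to 16881 in Ovx + AngII, with 7 of 8 rising in each comparison. This list holds Postn, which is also a listed ligand, as are Col1a1 of the general fibroblast markers and Vtn of the pericyte markers. Over all genes, 4.8% rose and 3.38% fell in Ctrl females, and 5.09% rose and 5.09% fell in Ovx females. The 8 general fibroblast markers summed to 56293 to 69733 in Ctrl and to 67644 to 82594 in Ctrl + AngII, with 4 rising, and to 62505 to 68051 and 66176 to 75901 in the Ovx pair, with 2 rising. The endothelial markers summed to 34167 to 38832 in Ctrl and 32930 to 37136 in Ctrl + AngII, which overlapped, and none of the 8 passed in either kind of females. Of 7 pericyte markers 3 rose and 1 fell in Ctrl and 1 fell in Ovx, with sums of 34428 to 37210 in Ctrl and 33220 to 36895 in Ctrl + AngII, and of 35569 to 40378 and 31264 to 37709 in the Ovx pair, which overlapped in both. Of 8 cardiomyocyte markers 2 fell in each comparison, with sums of 1824494 to 2196742 and 1822266 to 2040299 in the Ctrl pair and of 1873660 to 2038267 and 1775784 to 1930747 in the Ovx pair. The part of these cells in the changes of the subunits was not tested.

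The genes whose values followed those of the 3 subunits most closely over all 24 libraries were picked among genes with a mean of at least 50, and their coefficients are descriptions over libraries that share groups. For Itga5 they were Inpp5a (Pearson r = 0.916), an inositol phosphate phosphatase, Uck2 (0.907), a uridine-cytidine kinase, and Nuak1 (0.907), a kinase of the AMPK family. Over the 16 libraries without AngII these coefficients were 0.603, 0.491 and 0.473. For Itgb3 they were Ube2f (0.830), Dffa (0.810) and Tspan17 (0.796), with 0.741, 0.735 and 0.656 in the libraries without AngII. For Itgb5 they were Galns (0.856), Usp20 (0.845) and E230013L22Rik (0.844), with 0.708, 0.621 and 0.625.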

How the data were processed

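LV mRNA was measured in 24 libraries (16 female, 8 male), grouped by the submitters' labels, each a pool of 2 mice by the study's account. The authors used a stranded mRNA kit, aligned reads to UCSC mm10 by STAR and normalized them by DESeq2 (BaseSpace). Salmon is also named in the submitters' processing notes, and no tool has a version. They deposited a signal, the DESeq2-normalized value per gene, which is never negative and is not a count. Only 3.72% to 9.27% of values came out as whole reads (tolerance 0.01), so counts were not recovered, and depth is given only relative to the median library. Left out were 14 rows named by dates (0.0552% of the sum) and 1 line without a name. No column lacked a sample (0 columns).

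Values were divided by a median-of-ratios factor per library over 13871 genes. They were tested with limma 3.58.1 (R 4.3.3; trend, 2-sided) on log2(value + 1), which understates changes of low genes, for genes with a mean of at least 10, with Benjamini-Hochberg adjustment over 13799 genes. Comparisons among females were fitted on the 16 female libraries and the others on all 24. Single members were also compared by a 2-sided exact permutation test (SciPy 1.17.1) on the mean log2(value + 1) of 4 libraries against 4. The script was tested on simulated data. All 10 members were named, and from the lists of other subunits, adaptors and ligands the up to 4 largest AngII effects per comparison that passed. The ligand list held Cyr61 also as Ccn1 and Ctgf also as Ccn2, and 28 of its 30 symbols were in the table. Fn1, Col1a1, Lama2 and the list genes that passed outside the AngII effects were added after their values were seen. The members and lists were chosen with earlier results of these data known. Alternatives changed the scale, filter, pseudocount (0.1 and 10), trend, weights and libraries in the fit. Lengths and coordinates are from GENCODE vM21 and promoters from RefSeq (GRCm38.p6).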

Additional observations from a re-analysis of the deposited data

Results flagged for a closer look

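In each group of 4 libraries, the highest or lowest library was compared with the other 3 for all 10 members and 15 other integrin subunits, 150 sets in all, and 14 had a library further from the rest than Dixon's critical value. Chance flags about 1 in 20 such sets. Among the members these were Itga1 in Ctrl replicate 39 (1457, the others 961 to 1040), Itgb3 in Ctrl + AngII replicate 42 (174, the others 122 to 130) and Itgb3 in control male replicate 49 (194, the others 76.5 to 96.2). In that male library the activated fibroblast markers summed to 6266 (2124 to 3043 in the other 3), the platelet markers to 629 and the macrophage markers to 13106, each the highest of the 4 control male libraries, and their part was not tested. Ctrl replicate 39 also stood apart for the leukocyte subunits Itgal (740, the others 85.5 to 104), Itga4 (384, the others 71.2 to 117), Itgam (678, the others 255 to 317) and Itgb7 (187, the others 47.3 to 50.1). In Ovx + AngII, a library stood apart in Itga9 (3996 in replicate 48, the others 2760 to 2844), Itga10 (59.9 in replicate 47, the others 46.6 to 48.8), Itgal (150 in replicate 46, the others 86.5 to 90.8), Itgb4 (140 in replicate 54, the others 80.4 to 88.0) and, below the rest, Itga3 (312 in replicate 54, the others 329 to 331). Low libraries were also found for Itgb6 in Ctrl replicate 51 (180, the others 274 to 281) and for Itga2b in control male replicate 33 (18.1, the others 131 to 144).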

How the results depend on the processing

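The number of members past the threshold stayed within 1.5 times the main count in 162 of 166 alternatives. The exceptions were 4 members after AngII in Ovx females with library quality weights and, on the values as deposited, 1 member (Itgb1) in the difference of the AngII effects, 1 (Itga6) in Ovx against Ctrl under AngII and 5, all lower in males, between male and female controls. Over all 13811 genes, 1048, 622 and 9332 were called in those 3 comparisons, 9295 of the last lower in males. Leaving out 1 library gave 2 to 4 members in Ctrl females, 2 to 3 in Ovx females and 0 in the other comparisons. Over all genes, those fits called 663 to 1290 in Ctrl females and 893 to 1759 in Ovx females. On the values as deposited, the AngII effect in Ctrl took the other sign in Itga6 (-0.18), Itga7 (-0.13), Itgav (-0.15), Itgb1 (-0.25), Parvb (-0.02) and Lama2 (-0.02), as did Itga7 in Ovx (-0.07), the difference of effects in Itga5 (0.13) and Itgb5 between male and female controls (-0.20). Those values keep the median shift of each group. Near 0, signs also turned in Itga1 in Ctrl (0.02 with weights, 0.08 without replicates 39 and 40) and Itga7 in Ovx (-0.02 with an upper-quartile factor, -0.05 with weights), where the cause was not tested. With 1 library left out, the range was -0.07 to 0.13 in Itga1 and -0.04 to 0.20 in Itga6 (both Ctrl), -0.10 to 0.06 in Itga7 (Ovx) and -0.19 to 0.01 for the difference of effects in Itga5. Leaving out replicates 39 and 40 together was chosen after seeing the data. The Itgb3 call in Ctrl was also lost with no filter on low values (adjusted p = 0.054 by limma), with all 24 libraries in the fit (0.071) and without the 6 libraries numbered 49 to 54 (0.14). Without these 6, the calls over all genes fell from 1128 to 569 in Ctrl and from 1405 to 688 in Ovx, with 1 library fewer in each group. With weights 2468 genes were called in Ovx, and on the values as deposited 6986 in Ctrl and 2146 in Ovx. No paired analysis was possible because the groups compared share no replicate numbers. Small changes of Itga8, Itga11 and Itgb3 are limited by their low values.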
